A study of Homo sapiens with 8 samples.

Results

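INPP5D, PLCH2 and LPGAT1 are 3 human genes for enzymes that act on membrane lipids. They were picked from a table of 29991 entries because their messenger RNA was much lower in cells that received siRNA against p53. All 3 are entries of that table, and all 3 lay above its detection floor in 8 of 8 libraries. The values that picked them are given below as a description, without a test. The cells were MCF10A, an immortalised, non-tumorigenic line of human breast epithelium with basal features. They were transfected with a control siRNA (siControl), with siRNA against the kinases LATS1 and LATS2 (siLATS), with siRNA against p53 (sip53), or with the siRNAs against LATS1, LATS2 and p53 together (siLATS_p53). Each of the 4 groups had 2 libraries of polyadenylated RNA, 1 from each of 2 independent batches of cells. All groups share the same line and a transfection, and no untransfected cells were measured. Such libraries measure the RNA of a whole culture, so that fewer cells with a transcript and less of it per cell cannot be told apart.

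INPP5D encodes SHIP1, a phosphatase that takes the 5-phosphate off the lipid messenger PI(3,4,5)P3. That messenger is made by PI3-kinases at the plasma membrane and recruits kinases such as AKT, and SHIP1 is best known as a brake on this signal in blood cells. PLCH2 encodes phospholipase C eta 2, which cleaves another phosphoinositide into inositol trisphosphate, a releaser of stored calcium, and diacylglycerol, an activator of protein kinase C. LPGAT1 encodes an acyltransferase of the endoplasmic reticulum that puts a fatty acid onto lysophospholipids, among them lysophosphatidylglycerol. The transcription factor p53 switches on stress-response genes such as CDKN1A. The LATS kinases of the Hippo pathway hold back the coactivators YAP and TAZ.

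The sequences just upstream of the genes are shown because the 3 transcripts moved together with p53 siRNA and because nothing in the expression values shows which promoter was used. RefSeq (GRCh38.p14) lists 1 start site for INPP5D, 3 for PLCH2 and 3 for LPGAT1 in the promoter table. The 250 bases before the first listed start of each gene are printed 5′ to 3′ on the gene's strand, at chr2:233060092-233060341 (plus strand) for INPP5D, chr1:2467201-2467450 (plus strand) for PLCH2 and chr1:211830764-211831013 (minus strand) for LPGAT1. Capitals mark GGGCGG, the core of a GC box, or AGGAAG, a core of ETS family sites, on either strand.
INPP5D: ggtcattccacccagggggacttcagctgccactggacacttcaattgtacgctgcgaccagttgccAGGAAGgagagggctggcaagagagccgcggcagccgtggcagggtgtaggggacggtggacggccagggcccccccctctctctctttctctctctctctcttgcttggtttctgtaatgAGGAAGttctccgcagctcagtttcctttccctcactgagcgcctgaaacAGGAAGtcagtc
PLCH2: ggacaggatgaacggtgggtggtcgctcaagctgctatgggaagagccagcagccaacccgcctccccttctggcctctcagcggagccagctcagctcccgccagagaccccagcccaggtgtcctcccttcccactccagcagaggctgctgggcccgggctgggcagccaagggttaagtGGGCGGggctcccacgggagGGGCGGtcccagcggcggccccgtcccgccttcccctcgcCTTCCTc
LPGAT1: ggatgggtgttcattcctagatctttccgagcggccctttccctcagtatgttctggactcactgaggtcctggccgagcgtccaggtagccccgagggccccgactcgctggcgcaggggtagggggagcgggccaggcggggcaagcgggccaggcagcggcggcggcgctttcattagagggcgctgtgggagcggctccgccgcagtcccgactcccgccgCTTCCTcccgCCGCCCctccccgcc
Of these windows, that of INPP5D held 3 matches to AGGAAG and none to GGGCGG. The PLCH2 window held 2 matches to GGGCGG and 1 to AGGAAG, and the LPGAT1 window held 1 of each. Of 35116 RefSeq windows of the same length, 42.6% held GGGCGG and 28.7% held AGGAAG on either strand. GGAATG, a core of TEAD sites, was found once in the INPP5D window and once in the LPGAT1 window, against 11.9% of all windows. The other listed windows, 2 of PLCH2 and 2 of LPGAT1, held 1 to 4 matches to GGGCGG and none to AGGAAG or GGAATG. These 2 windows of each gene overlap each other, so that some matches are the same site counted in both. The bases G and C made up 59.2% of the INPP5D window and 66.8% to 82.8% of the PLCH2 and LPGAT1 windows. The median over all windows was 58.0%. The p53 decamer motif was in none of the 7 listed windows of the 3 genes, and 5.57% of all windows held it. Motifs could overlap, and these matches describe letters in short windows.

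The deposited values were log2 expression levels, and none was below 5, the level called the floor, where 17422 entries sat in all 8 libraries. The read depth was not given. The spacing of low values on the linear scale, which would be wider in a shallower library, differed 3.43-fold between the coarsest and the finest library. The coarsest were siLATS_p53 replicate 1 and siControl replicate 1. Differences below are log2 differences with their standard error (SE) from limma, fitted over all 8 libraries. Adjusted p-values (Benjamini-Hochberg) cover 12315 entries, those that exceeded the floor in 2 or more libraries, and a call means an adjusted p under 0.05. LATS1 was lower by 1.77 ± 0.08 and LATS2 by 1.24 ± 0.10 with LATS siRNA, averaged over both p53 states (limma, adjusted p = 6.28e-05 and 0.000613). CDKN1A was between 12.29 and 13.07 in the 4 libraries without p53 siRNA and between 9.82 and 10.16 in the 4 with it.

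INPP5D had the widest gap between libraries with and without p53 siRNA. Its log2 level was 11.13 and 11.54 in siControl, 10.94 and 11.31 in siLATS, 8.65 and 8.87 in sip53, and 8.18 and 8.35 in siLATS_p53, batch 1 first. The lowest library without p53 siRNA was 2.06 above the highest library with it. With p53 siRNA alone INPP5D was lower by 2.58 ± 0.18 (SE), which is 5.96-fold, and stood at 16.8% of siControl. On top of LATS siRNA it was lower by 2.86 ± 0.18, or 7.24-fold. These comparisons share no library, and the values per batch were -2.48 and -2.67 in the first and -2.76 and -2.95 in the second. By size of the difference INPP5D was number 3 of the 12315 entries in both.

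PLCH2 was the member with the largest disagreement between batches. Its log2 level was 10.49 and 10.66 in siControl, 10.54 and 10.59 in siLATS, 8.59 and 8.84 in sip53, and 8.01 and 8.99 in siLATS_p53. The groups with and without p53 siRNA did not overlap: the lowest library without it was at 10.49 and the highest with it at 8.99. The choice of the gene by p53 siRNA favours such a gap. PLCH2 was lower by 1.86 ± 0.28 with p53 siRNA alone, a 3.63-fold difference that was close in the batches (-1.90 and -1.82). On top of LATS siRNA it was lower by 2.06 ± 0.28, with -2.54 in batch 1 and -1.59 in batch 2. Without siLATS_p53 replicate 1, one of the 2 libraries with the coarsest values, that difference was -1.57.

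LPGAT1 showed 4 separate levels. They were 13.18 and 12.99 in siControl, 12.70 and 12.59 in siLATS, 11.69 and 11.63 in sip53, and 11.18 and 10.97 in siLATS_p53. No 2 groups overlapped. The choice by p53 siRNA favours part of this separation, and the share of all entries with such separate groups is not given. With p53 siRNA alone LPGAT1 was lower by 1.42 ± 0.11, or 2.68-fold, and on top of LATS siRNA by 1.57 ± 0.11, or 2.97-fold. The batches gave -1.49 and -1.35 in the first comparison and -1.53 and -1.61 in the second. The gap between libraries with and without p53 siRNA was 0.90.

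**Figure D1:**
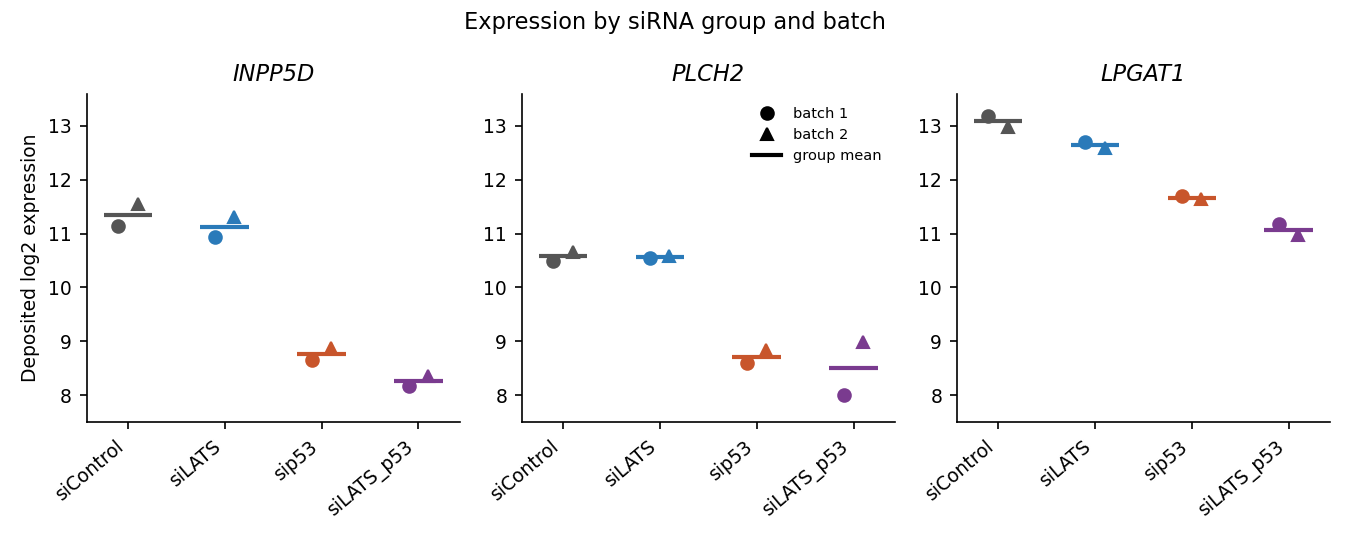
Deposited log2 expression of INPP5D, PLCH2 and LPGAT1 in each library, by siRNA group. Circles are batch 1, triangles batch 2 and bars the mean of the 2 libraries. For each gene the 4 libraries with p53 siRNA lie below the 4 without it, and the siLATS_p53 libraries of PLCH2 are far apart (8.01 and 8.99).

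The response to LATS siRNA was not used to pick the genes. Averaged over both p53 states, LPGAT1 fell by 0.51 ± 0.07 with LATS siRNA, which is 1.43-fold lower (limma, adjusted p = 0.00576). The average was negative in both batches, at -0.50 and -0.53. It is orthogonal to the average p53 siRNA difference. Of all entries tested, 8.6% were called lower in the same comparison. The call held in each of 17 alternative analyses, with adjusted p-values up to 0.049.

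The separate LATS comparisons of LPGAT1 pointed the same way. Without p53 siRNA LPGAT1 fell by 0.44 ± 0.11 (limma, adjusted p = 0.0492), where 4.89% of entries were called lower. With p53 siRNA present it fell by 0.59 ± 0.11 (limma, adjusted p = 0.0289), where 1.12% were called lower. The first of these shares siControl, and the second sip53, with the comparison that picked the gene. Neither call was stable to the loss of a library: the first was lost whichever 1 of the 8 libraries was left out (adjusted p between 0.06 and 0.205), and the second was lost without any 1 siLATS, sip53 or siLATS_p53 library (between 0.0745 and 0.171). It held without either siControl library.

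INPP5D was lower with LATS siRNA in all 4 pairs of same-batch libraries, but its call depended on how the batch was handled. The average over both p53 states was -0.36 ± 0.13 (limma, adjusted p = 0.107), with -0.33 in batch 1 and -0.38 in batch 2. With the batch as a block, which the labels support because same-numbered libraries come from the same batch of cells, the same difference passed (adjusted p = 0.000609, where 22.4% of entries were called lower). Without p53 siRNA the difference was -0.22 ± 0.18 (limma, adjusted p = 0.514, and 0.0874 with the block). With p53 siRNA present it was -0.50 ± 0.18 (limma, adjusted p = 0.205, and 0.00144 with the block, where 9.42% of entries were called lower).

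For PLCH2 no LATS difference was detectable. The average was -0.12 ± 0.20 (limma, adjusted p = 0.751), with a 95% interval from -0.58 to 0.35, and the batches gave -0.27 and 0.04. Without p53 siRNA the difference was -0.01 ± 0.28 (limma, adjusted p = 0.994). With it present the difference was -0.22 ± 0.28 (limma, adjusted p = 0.748), made of -0.59 in batch 1 and 0.15 in batch 2. Without siLATS_p53 replicate 1 this last value was 0.28. Whether the LATS responses of the 3 genes differ from each other was not tested.

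**Figure D2:**
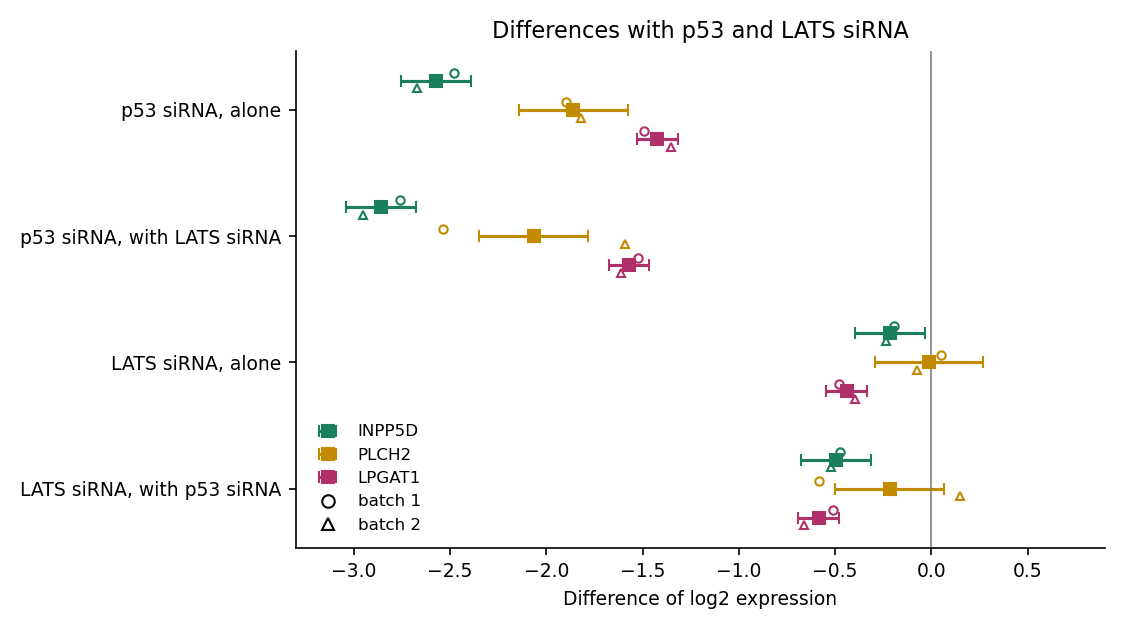
Differences of log2 expression for INPP5D, PLCH2 and LPGAT1 with p53 siRNA (upper rows) and with LATS siRNA (lower rows), each without and with the other siRNA. Squares are differences of group means with their SE from limma, and open circles and triangles are batch 1 and batch 2. LPGAT1 is left of 0 in both LATS comparisons and both batches, and the batches of PLCH2 lie on both sides of 0.

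In the combined knockdown, transcripts of all 3 genes were at their lowest mean levels, which for PLCH2 rests on siLATS_p53 replicate 1: replicate 2, at 8.99, was above both sip53 libraries. Relative to siControl, INPP5D stood at 86.1% in siLATS, 16.8% in sip53 and 11.9% in siLATS_p53. PLCH2 stood at 99.1%, 27.6% and 23.7%, and LPGAT1 at 73.7%, 37.3% and 24.8%. In order of mean level, siControl and siLATS overlapped for INPP5D and for PLCH2, and sip53 lay within the range of siLATS_p53 for PLCH2. The combined difference exceeded the sum of the separate ones by 0.28 ± 0.26 for INPP5D, 0.20 ± 0.40 for PLCH2 and 0.15 ± 0.15 for LPGAT1, in the direction of lower expression. Without the 2 libraries of coarsest spacing the combined difference fell short of that sum for INPP5D and PLCH2, as it did for PLCH2 without siLATS_p53 replicate 1 alone. These values contain the differences that picked the genes and were not tested.

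The batches also left a trace in the 3 genes, in different directions. INPP5D was higher in batch 2 in all 4 groups, by 0.17 to 0.41. LPGAT1 was lower in batch 2 in all 4 groups, by 0.05 to 0.20, written as batch 2 minus batch 1 of -0.05 to -0.20. PLCH2 was higher in batch 2 by 0.05 to 0.25 in 3 groups and by 0.99 in siLATS_p53.

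Most other genes of the same lipid pathways were not called with p53 siRNA. Of 136 genes in 9 lists of phosphoinositide, phospholipase C, lysophospholipid and cardiolipin genes, 114 were tested, and 18 lay at the floor in all libraries. With p53 siRNA alone 6 of the 114 fell and 2 rose, where 2.1% of all entries were called lower and 1.76% higher. Their median difference was 0.05, beside 0.06 over all entries, and their lowest difference was -1.11, so that none was as low as LPGAT1. The choice of the 3 genes for low values with p53 siRNA favours that order. On top of LATS siRNA 7 of the 114 fell and 9 rose, where 3.22% of all entries were called lower and 11.3% higher. The medians were 0.11 and 0.15. With the batch as a block 18 fell and 18 rose in the first comparison, where 10% and 16% of entries were called, and 16 fell and 34 rose in the second, where 9.72% and 33.8% were called. The 9 and the 34 that rose include PLCH1, which was at the floor in all 4 libraries without p53 siRNA and could only rise.

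The closest relative of INPP5D had a different profile. INPPL1 encodes SHIP2, the broadly expressed paralogue with the same enzymatic activity. Its log2 level was 11.38 and 11.60 in siControl, 12.41 and 12.46 in siLATS, 11.41 and 11.59 in sip53, and 12.21 and 12.49 in siLATS_p53. INPPL1 rose with LATS siRNA by 0.90 ± 0.09 on average (limma, adjusted p = 0.00134), where 6.66% of entries were called higher, and its libraries with and without LATS siRNA did not overlap. With p53 siRNA it differed by 0.01 ± 0.13 alone and by -0.08 ± 0.13 on top of LATS siRNA (limma, adjusted p = 0.986 and 0.679).

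Of 9 inositol 5-phosphatase genes tested besides INPP5D, 1 fell with p53 siRNA in each p53 comparison. This was OCRL, whose product removes the same phosphate from another phosphoinositide in endosomes and the Golgi. It fell by 0.76 ± 0.08 alone and by 0.60 ± 0.08 on top of LATS siRNA (limma, adjusted p = 0.00941 and 0.00734). Of all entries, 2.1% and 3.22% were called lower in these comparisons. The adaptor gene GRB2, which can couple SHIP1 to receptors, fell by 0.82 ± 0.11 and 0.53 ± 0.11 (limma, adjusted p = 0.0184 and 0.0232). It was the 1 gene called among 8 tested genes of SHIP1 partners in each p53 comparison, against the same 2.1% and 3.22% of entries. With the batch as a block 3 of the 8 partner genes fell in each comparison, where 10% and 9.72% of all entries were called lower.

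Kinase and other phosphatase genes around PI(3,4,5)P3 were called in both directions with p53 siRNA alone only when the batch was a block. Among the class I PI3-kinase genes, PIK3CD, a catalytic subunit gene best known from white blood cells, fell by 0.92 ± 0.17 (limma, adjusted p = 0.0367). Of 17 other phosphoinositide phosphatase genes 1 fell, the myotubularin-related gene MTMR14 (-0.80 ± 0.15, limma, adjusted p = 0.0402), where 2.1% of all entries were called lower. The blocked fit called 4 of the 17 lower and 1 higher. Of 13 phosphoinositide kinase genes 3 rose and 2 fell in that comparison with the batch as a block, and none was called without it. The blocked fit called 16% of all entries higher and 10% lower there. PIK3C2B, a class II PI3-kinase gene, rose with LATS siRNA by 1.02 ± 0.13 on average (limma, adjusted p = 0.00336).

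The phospholipase C genes gave a mixed picture around PLCH2. Of 14 other isozyme genes, 5 lay at the floor in all libraries and 7 were tested. PLCH1, the nearest paralogue of PLCH2, was at the floor in the 4 libraries without p53 siRNA and between 5.39 and 5.94 in the 4 with it, the opposite order to PLCH2 at a level where no fold is given. It entered the tests only through the 4 libraries with p53 siRNA. PLCD3 fell with p53 siRNA alone by 0.55 ± 0.11 (limma, adjusted p = 0.0419). It was the 1 isozyme called lower there, where 2.1% of all entries were called lower. On top of LATS siRNA PLCD3 was not called (-0.34 ± 0.11, limma, adjusted p = 0.0753). Of 21 genes for inositol trisphosphate and diacylglycerol signalling, 1 rose with p53 siRNA alone, where 1.76% of all entries were called higher. It was the diacylglycerol kinase gene DGKD (0.65 ± 0.10, limma, adjusted p = 0.0274). On top of LATS siRNA DGKD was not called (0.37 ± 0.10, limma, adjusted p = 0.0551). There 1 of the 21 fell, namely DGKA (-0.52 ± 0.11, limma, adjusted p = 0.0248), where 3.22% of all entries were called lower.

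Genes near LPGAT1 in phospholipid synthesis included some that fell with LATS siRNA. Of 16 other lysophospholipid and glycerophosphate acyltransferase genes, 1 passed with p53 siRNA alone and it rose, namely AGPAT5 (0.45 ± 0.08, limma, adjusted p = 0.0352). In that comparison 1.76% of all entries were called higher. The blocked fit called 6 of the 16, and all 6 rose, where 16% of all entries were called higher and 10% lower. Averaged over both p53 states, 3 of the 16 passed with LATS siRNA, and all 3 fell, where 8.6% of all entries were called lower. These were GPAM, which starts glycerolipid synthesis in mitochondria (-0.79 ± 0.10), MBOAT2 (-0.40 ± 0.05) and AGPAT4 (-0.32 ± 0.07). Their adjusted p-values from limma were 0.00357, 0.00336 and 0.028. The blocked fit called 5 of the 16 lower and 2 higher, where 22.4% and 16% of entries were called. LCLAT1, a relative of LPGAT1 that acts on lysocardiolipin, was between 9.90 and 10.45 in the 8 libraries and passed in none of the p53 or LATS comparisons.

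Of 12 phosphatidylglycerol and cardiolipin genes, 3 fell and 1 rose with LATS siRNA on average, where 8.6% of all entries were called lower and 6.66% higher. In the blocked fit 7 fell and 1 rose, against 22.4% and 16% of entries. CDS1 makes CDP-diacylglycerol, the precursor of phosphatidylglycerol. It fell by 1.00 ± 0.08 (limma, adjusted p = 0.000598), from 11.80 and 11.54 in siControl to 10.59 and 10.52 in siLATS. The cardiolipin synthase gene CRLS1 fell by 0.41 ± 0.07 and the phospholipase gene PNPLA8 by 0.40 ± 0.07 (limma, adjusted p = 0.0108 and 0.00933). With p53 siRNA alone limma without the block called none of the 12. The blocked fit called 4 of them higher and 2 lower, against 16% and 10% of entries.

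**Figure D3:**
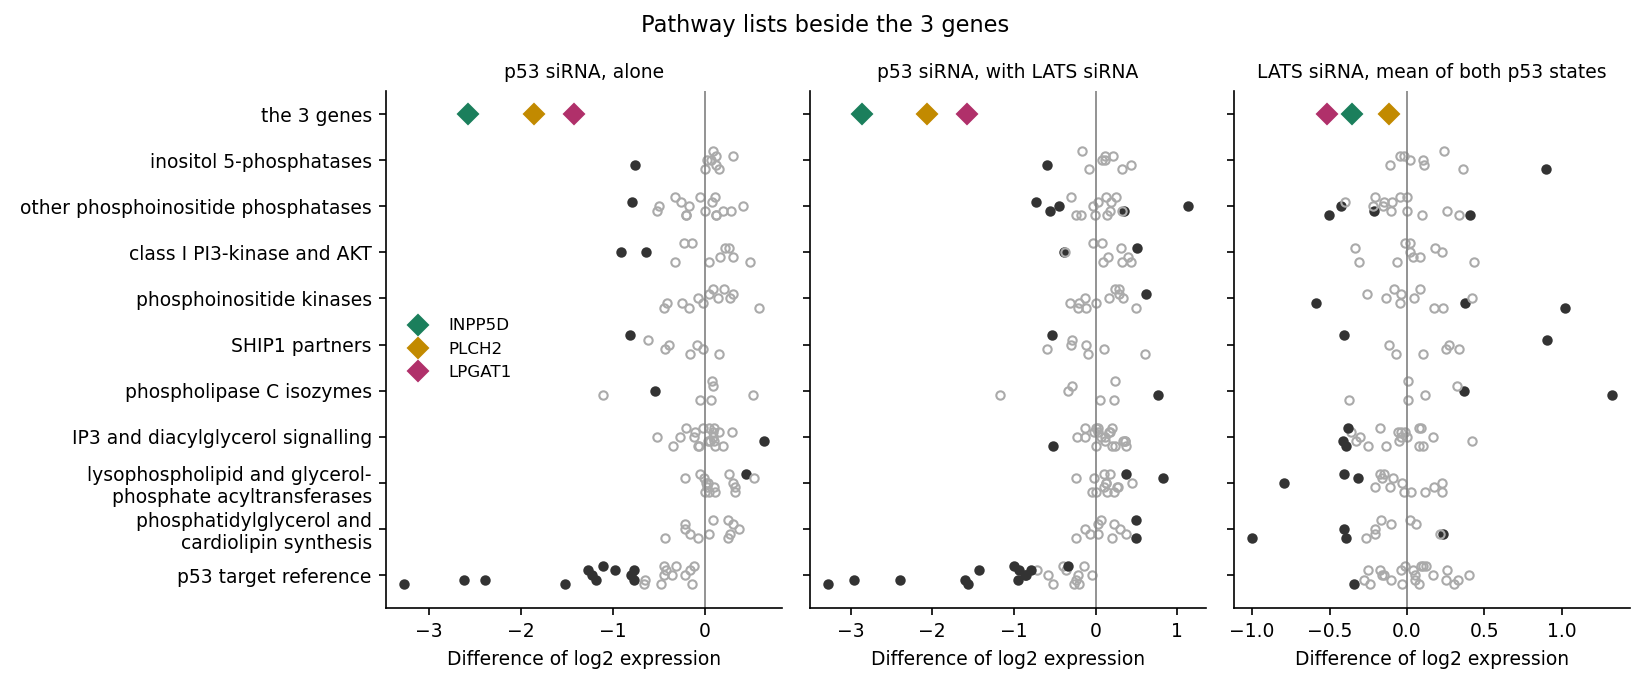
Differences of log2 expression for every tested gene of 10 lists, beside INPP5D, PLCH2 and LPGAT1 (diamonds), in 3 comparisons. Filled points passed limma at an adjusted p of 0.05 and open grey points did not. With p53 siRNA the 3 genes lie left of every gene in the 9 lipid lists and among the values of the p53 target list. The choice of the 3 genes by p53 siRNA favours this place. The lowest difference in the lipid lists is -1.11 with p53 siRNA alone and -1.17 on top of LATS siRNA.

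The p53 target list gives the scale of the p53 response in the same libraries. Of 24 widely used p53 targets, 12 passed with p53 siRNA alone and 13 on top of LATS siRNA, and all of these fell, with medians over the 24 of -0.71 and -0.76. Of all entries, 2.1% and 3.22% were called lower in these comparisons. With the batch as a block 20 and 19 of the targets fell, where 10% and 9.72% of entries were called lower. CDKN1A fell by 2.62 ± 0.19 and MDM2, whose product restrains p53, by 1.18 ± 0.13 (limma, adjusted p = 0.00243 and 0.00977). Averaged over both p53 states, 1 of the 24 passed with LATS siRNA and it fell, where 8.6% of all entries were called lower. The blocked fit called 4 higher and 4 lower, where 16% and 22.4% of entries were called.

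SHIP1 is a usual mark of blood cells, so markers of other cell types were read beside INPP5D. Of 14 blood cell markers, 8 lay at the floor in all 8 libraries, among them PTPRC, which encodes CD45, CD53, SPI1, VAV1 and CD3E. The other 6 included LCP1, which also varied by batch (10.53 and 8.34 in siControl). Summed on the linear scale, the blood markers ranged from 962 to 2244 in siControl and from 962 to 2116 in sip53, and from 1511 to 3021 in siLATS and 1525 to 3067 in siLATS_p53. With p53 siRNA on top of LATS siRNA CORO1A rose by 1.23 ± 0.22 (limma, adjusted p = 0.0148), where 11.3% of all entries were called higher. The others went both ways without a call: LAPTM5 0.71, CD14 0.90, CSF1R 0.03, LCP1 -0.47 and ITGB2 -0.33. Their part in the p53 differences of INPP5D was not tested. With LATS siRNA 2 of the 6 rose on average, where 6.66% of all entries were called higher. Their part in the LATS differences of INPP5D was not tested. All 10 breast epithelial markers were above the floor. Of these, 4 rose and 1 fell with LATS siRNA on average, where 6.66% of all entries were called higher and 8.6% lower. The linear level of INPP5D itself was 2245 and 2988 in siControl and 402 and 469 in sip53.

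Neighbouring genes were not lower with p53 siRNA in the way the 3 genes were. By RefSeq order on chromosomes 1 and 2, the nearest tested genes are NGEF and ATG16L1 for INPP5D, PEX10 and PANK4 for PLCH2, and NEK2 and INTS7 for LPGAT1. With p53 siRNA alone the 6 lay between -0.22 and 1.13 and none passed with limma. NGEF and NEK2, both higher, had unadjusted p-values of 0.00346 and 0.00571 and passed once batch was blocked. On top of LATS siRNA 3 of them rose, namely NGEF (1.34 ± 0.27, from a level at or near the floor in siLATS), the mitotic kinase gene NEK2 (1.03 ± 0.13) and INTS7 (0.33 ± 0.08), with adjusted p-values from limma of 0.0199, 0.0063 and 0.0384. The antisense gene LPGAT1-AS1 overlaps LPGAT1 in RefSeq. The library kit does not keep strand, so reads from the pair cannot be told apart.

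The 3 genes were alike across the 8 libraries, which the choice of members by p53 siRNA favours. Pearson's r was 0.97 for INPP5D with PLCH2, 0.96 for INPP5D with LPGAT1 and 0.91 for PLCH2 with LPGAT1. Among 1940 other entries above the floor in all libraries with a range of at least 1, the most alike to INPP5D were RGS12 (r = 0.993), ABCA12 (0.993), SLC35B4 (0.988), CHST11 (0.988) and BTG2 (0.988). For PLCH2 they were RGS12 (0.985), BTG2 (0.984), NOL6 (0.981), RAPGEF3 (0.980) and PGF (0.979). BTG2, an antiproliferative gene of the p53 target list, and RGS12 stood near both. For LPGAT1 the set was different: KLHL8 (0.998), TMEM41B (0.996), SLC44A5 (0.991), SERINC3 (0.990) and DCBLD2 (0.988).

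The sets also differed in their values with LATS siRNA alone, which the choice by correlation favours. That choice used all 8 libraries, the siControl and siLATS libraries among them. The 5 entries nearest LPGAT1 had differences from siControl between -0.30 and -0.21, beside -0.44 for LPGAT1. The 5 nearest INPP5D lay between -0.14 and 0.09, and the 5 nearest PLCH2 between -0.19 and 0.05. With p53 siRNA alone their differences were smaller than those of the 3 genes, between -0.57 and -1.39. All these correlations are descriptions over 8 libraries that share batches and groups, and the entries were selected as the highest of many.

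**Figure D4:**
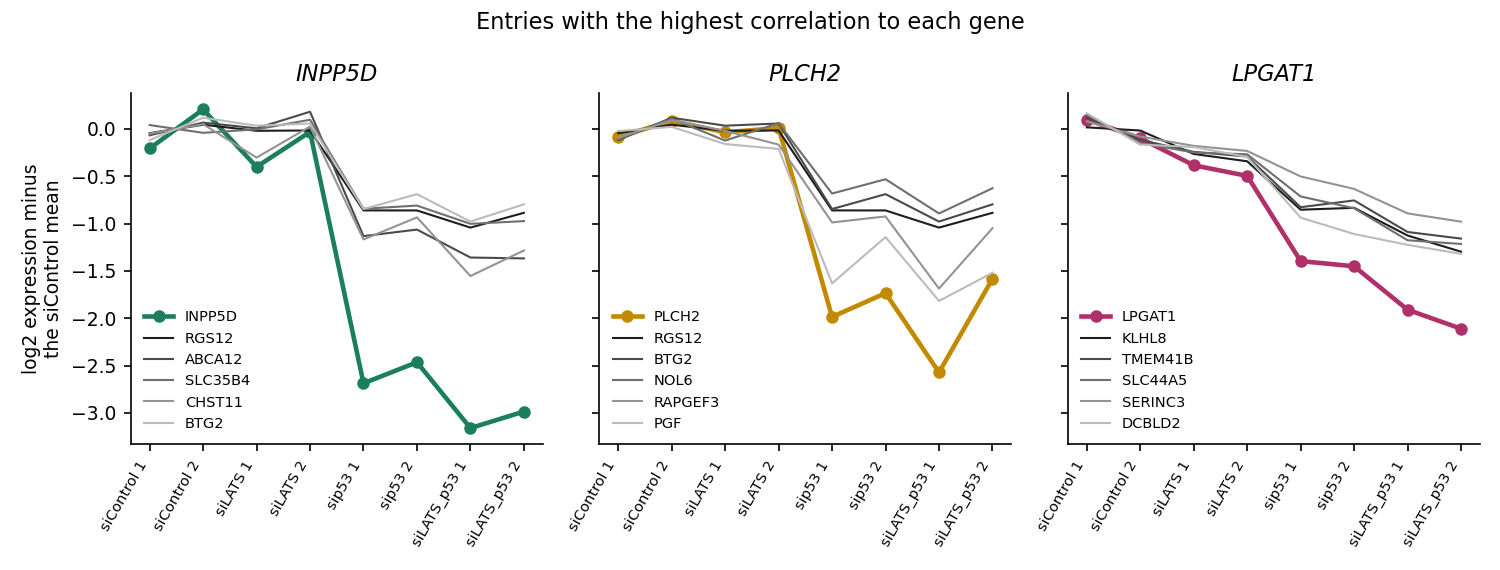
Log2 expression minus the siControl mean over the 8 libraries for each of the 3 genes (coloured line) and the 5 entries with the highest Pearson correlation to it (grey lines). The entries nearest LPGAT1 are already below 0 in siLATS, between -0.30 and -0.21 on average, and all lines are lowest in the groups with p53 siRNA. The choice by correlation over the same 8 libraries favours such likeness.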

How the data were processed

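The data are 8 RNA-seq libraries of MCF10A cells, a pair per siRNA group. Per the labels' protocols, polyadenylated RNA was prepared with the TruSeq RNA version 2 kit and the libraries shared a lane. TopHat and hg19 are the aligner and build named in the submitters' processing notes. What counted the reads, which annotation and scaling were used and why values stop at a floor is not given in the sources used here. Values deposited are log2 expression levels with none below 5, taken here as a floor. Low values lay on an even grid when converted with base 2 (concentration 0.929 to 0.999, against 0.575 at most with base e or 10), which settled the base. All 8 files of single libraries were identical in value to the table of the series.

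The values were fitted as deposited by limma (version 3.58.1, R version 4.3.3) with its trend option, as 1 model of the 4 groups that leaves 4 residual degrees of freedom. Of 29991 entries, 12315 exceeded the floor in 2 or more libraries and were tested, and the Benjamini-Hochberg adjustment covers them. The procedure was tested on simulated data, but the outcome is not given here and no result rests on it. The labels give libraries of one number the same batch of cells, and for every pair of groups their deviations from the means were correlated (r from 0.565 to 0.726). The alternatives covered scaling, filters, pseudocounts, the batch as a block, the samples fitted, the trend and each library left out. The block with rescaling, and leaving out the 2 libraries of coarsest spacing, were chosen after seeing the data.

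The members and lists were chosen with earlier results of these data known. Named genes were the 3 members, the targets of the siRNAs, the paralogues INPPL1, PLCH1 and LCLAT1, up to 4 called genes per list and comparison with the smallest p, the 5 entries most alike to each member, and the nearest tested neighbours. Results for some genes under this rule are not reported here. Entries with a repeated symbol were not named.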

Additional observations from a re-analysis of the deposited data

How the results depend on the processing

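The depth of the libraries is not given, which limits what can be said of small differences. LPGAT1 with LATS siRNA, averaged over both p53 states, passed in all 17 alternatives (-0.56 to -0.46). With the batch as a replicate block, INPP5D passed on average (-0.36, adjusted p = 0.000609) and with p53 siRNA present (-0.50, 0.00144), and with rescaling added it was -0.32 and -0.51. Among the other LATS tests of the 3 genes the block changed no call. LPGAT1 with LATS siRNA alone missed the threshold after rescaling (-0.36), with no filter, with only the groups compared or without the trend (each -0.44), and without the 2 libraries of coarsest spacing (-0.34). With p53 siRNA present it missed it with only the groups compared or without the trend (each -0.59) and without those 2 libraries (-0.69). With 1 library left out these values ranged from -0.54 to -0.34 and from -0.69 to -0.49. The causes were not tested.

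PLCH2 with LATS siRNA changed sign. The average was 0.13 without siLATS_p53 replicate 1 and 0.089 without the 2 coarsest libraries, and ranged from -0.36 to 0.13 with 1 library left out. Alone it was 0.070 after rescaling, with or without the block, and ranged from -0.099 to 0.073 with 1 left out. With p53 siRNA present it was 0.28 without siLATS_p53 replicate 1 or the 2 coarsest libraries (range -0.71 to 0.28). With p53 siRNA on top of LATS siRNA PLCH2 ranged from -2.56 to -1.57, and in the combined knockdown from -2.57 to -1.58. Without the coarsest libraries these were -1.57 and -1.67. Its combined difference minus the sum of the separate ones, where a negative value is lower than the sum, was -0.20, ranged from -0.70 to 0.29, and was 0.37 without the coarsest libraries, where that of INPP5D was 0.012 and that of LPGAT1 -0.35. LPGAT1 with p53 siRNA on top of LATS siRNA was -1.73 after rescaling, with or without the block. Rescaling shifts that comparison because its median over all entries is 0.15.

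The number of entries called depended most on the block and the libraries kept. For LATS siRNA on average it was 1879, and 4737 with the block, 4670 with block and rescaling, 272 without the coarsest libraries and 658 to 1500 with 1 library left out. For LATS siRNA alone it was 948, and 3937, 3473, 0 and 43 to 700. With p53 siRNA present it was 451, and 2720, 2830, 0 and 49 to 362. For p53 siRNA alone it was 475, and 3199, 3049, 0 and 18 to 165, with 294 without the trend. On top of LATS siRNA it was 1791, and 5361, 4205, 0 and 12 to 1837. In the last 4 comparisons limma also called 0 with only the groups compared, where 2655, 2050, 2221 and 3673 entries had an unadjusted p below 0.05; without the coarsest libraries these were 2744, 2235, 2463 and 3173. A group that lost a library kept 1, assumed to vary like the others. INPPL1 with p53 siRNA alone was -0.052 after rescaling, with or without the block, -0.10 without the coarsest libraries, and from -0.10 to 0.12 with 1 library left out. On top of LATS siRNA it ranged from -0.22 to 0.058 with 1 left out, and was 0.058 without siLATS_p53 replicate 1 or the coarsest libraries. Of 1718 values for other named genes, 1141 kept their direction and call, 569 lost the call, 1 gained it and 7 changed sign.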

Other observations

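PLCB4, another phospholipase C gene, was singled out after its values were seen. It was low, between 6.04 and 9.40 in the 8 libraries. It was higher with LATS siRNA by 1.32 ± 0.29 on average over both p53 states (limma, adjusted p = 0.0229). With p53 siRNA it differed by -1.11 ± 0.40 alone and by -1.17 ± 0.40 on top of LATS siRNA (limma, adjusted p = 0.175 and 0.0938, and 0.000128 and 3.6e-05 with the batch as a block). In the combined knockdown it differed from siControl by 0.18 ± 0.40 (limma, adjusted p = 0.800).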
